A study of Arabidopsis thaliana with 12 samples.

Results

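The clade A protein phosphatases 2C (PP2Cs) of Arabidopsis thaliana were followed as transcripts in plantlets held at 0, 4, 10 or 22 °C. Members were chosen by locus: the transcript rows of the 9 genes ABI1 (AT4G26080), ABI2 (AT5G57050), HAB1 (AT1G72770), HAB2 (AT1G17550), AHG1 (AT5G51760), PP2CA (AT3G11410), HAI1 (AT5G59220), HAI2 (AT1G07430) and HAI3 (AT2G29380) were summed to 1 value per locus, out of 33560 annotated loci in the table. The rule names loci and uses no measured value, although the clade was picked for description with earlier results of these data known. Of the 9 members, 8 passed the filter on low counts and were tested, and AHG1 did not pass. HAI3 passed it only through its 0 °C libraries.

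The plants were wild-type Columbia 0 plantlets, 14 days old, grown in vitro at 22 °C under long days on a sucrose-containing Murashige and Skoog medium. Whole plantlets were moved to 0 °C, 4 °C or 10 °C, and control plantlets stayed at 22 °C. Each temperature has 3 biological replicates, each a pool of 10 plantlets from a plate, which gives 12 libraries of paired 250-base reads. The sample labels give 24 h of cold for every treatment, while the series' text lists 24, 48 and 72 h for 0, 4 and 10 °C; under the second reading temperature and duration cannot be told apart. The labels name no mutant, transgene or hormone treatment.

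Clade A PP2Cs sit at the centre of abscisic acid (ABA) signalling. Without the hormone they bind SnRK2 kinases and keep them inactive; the PYR/PYL/RCAR receptors, once bound to ABA, occupy the phosphatases' active site and so free the kinases, which phosphorylate ABF/AREB transcription factors and guard cell ion channels. The phosphatases are therefore negative regulators and co-receptors at the same time, and ABA itself is known to raise the transcripts of most of them, which forms a negative feedback loop in vegetative tissue. The genes form small groups of close relatives: ABI1 with ABI2, HAB1 with HAB2, PP2CA (also called AHG3) with AHG1, and the 3 HAI genes.

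The genomic sequence of 4 windows shows where the clade differs upstream of its genes. Each holds the 250 bases before the gene's annotated start, 5′ to 3′ on the gene's strand, read from the RefSeq assembly TAIR10.1. PP2CA and ABI2 are shown because their levels ran closest together over the 12 libraries (Pearson r 1.00, a description over 4 temperatures that all loci share), and HAI2 and HAI3 because these relatives had different temperature profiles. Capitals mark any match, on either strand, to ACGTG (the core of the ABA response element), CCGAC (the core of the DRE/CRT element bound by CBF factors), AATATCT (the core of the evening element) or CACGTG (the G-box, which contains ACGTG on both strands).
PP2CA, chr3:3585851-3586100, minus strand: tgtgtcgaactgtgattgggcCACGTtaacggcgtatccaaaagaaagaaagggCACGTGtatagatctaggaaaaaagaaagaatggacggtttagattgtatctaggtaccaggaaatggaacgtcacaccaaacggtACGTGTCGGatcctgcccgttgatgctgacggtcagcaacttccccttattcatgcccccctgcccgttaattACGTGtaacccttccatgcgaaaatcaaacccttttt
ABI2, chr5:23086872-23087121, plus strand: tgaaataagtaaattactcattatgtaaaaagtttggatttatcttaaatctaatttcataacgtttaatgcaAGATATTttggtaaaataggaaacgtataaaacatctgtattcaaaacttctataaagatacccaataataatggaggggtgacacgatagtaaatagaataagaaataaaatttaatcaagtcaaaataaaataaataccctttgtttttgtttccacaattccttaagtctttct
HAI2, chr1:2282829-2283078, minus strand: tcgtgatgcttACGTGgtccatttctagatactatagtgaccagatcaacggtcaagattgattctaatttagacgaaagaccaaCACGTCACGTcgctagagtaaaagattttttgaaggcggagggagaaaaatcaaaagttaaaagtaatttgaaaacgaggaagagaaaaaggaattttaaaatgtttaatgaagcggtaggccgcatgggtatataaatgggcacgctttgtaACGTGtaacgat
HAI3, chr2:12608425-12608674, plus strand: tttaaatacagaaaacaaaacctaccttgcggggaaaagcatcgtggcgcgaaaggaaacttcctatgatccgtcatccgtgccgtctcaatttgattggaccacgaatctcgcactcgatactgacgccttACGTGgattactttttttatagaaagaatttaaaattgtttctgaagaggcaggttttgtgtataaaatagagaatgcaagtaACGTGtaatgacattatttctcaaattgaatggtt

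The ACGTG core was present in the windows of 6 of the 9 members, against 22.9% of 27443 windows of the same length across the genome. PP2CA held 5 matches, of which a pair are the overlapping strands of 1 G-box, and HAI2 held 4, of which a pair adjoin. AHG1, HAB2 and HAI3 held 2 each, those of AHG1 being the strands of 1 G-box, and HAB1 held 1. ABI1, ABI2 and HAI1 held none. CCGAC occurred in PP2CA, where it overlaps an ACGTG, and in AHG1, against 12% of all windows; the G-box occurred in the same members, against 6.49%; and AATATCT occurred in ABI2, against 10%. A match is a description of the letters in this window and says nothing about binding.

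Cold-treated plantlets held more clade A PP2C transcript than plantlets at 22 °C, and the colder the treatment the more they held. Scaled by transcript length, the 9 genes together amounted to 449 ± 13.7 CPM per kb at 0 °C, 315 ± 5.25 CPM per kb at 4 °C, 150 ± 4.6 CPM per kb at 10 °C and 108 ± 7.36 CPM per kb at 22 °C (SD, n = 3 each; CPM is counts per 1000000 counts of the library after scaling, and kb is kilobases of transcript). In the count test, 7 of the 8 tested members were higher at 0 °C than at 22 °C, where 35.5% of all tested loci were called higher. At 4 °C 7 members were higher than at 22 °C (36.3% of loci), and at 10 °C 5 were higher (32.4% of loci). No tested member was called lower than at 22 °C, where 38.8% of loci were called lower at 0 °C, 37.6% at 4 °C and 32.3% at 10 °C; with total counts alone as the scaling, HAB2 was called lower at 0 °C (-0.67, adjusted p = 0.022). The median log2 fold change of the tested members was 2.15 at 0 °C, 1.60 at 4 °C and 0.43 at 10 °C, beside -0.07, -0.03 and -0.01 over all 21293 loci tested. HAI3 had to be high at 0 °C to be tested at all; without it 6 of 7 members were higher at 0 °C, 6 at 4 °C and 5 at 10 °C, with medians of 2.07, 1.56 and 0.48. The comparisons with 22 °C share the same 3 control libraries. ABI1, ABI2, HAB1, PP2CA and HAI2 were called higher in all 3 of them, as were 20.4% of all loci.

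**Figure D1:**
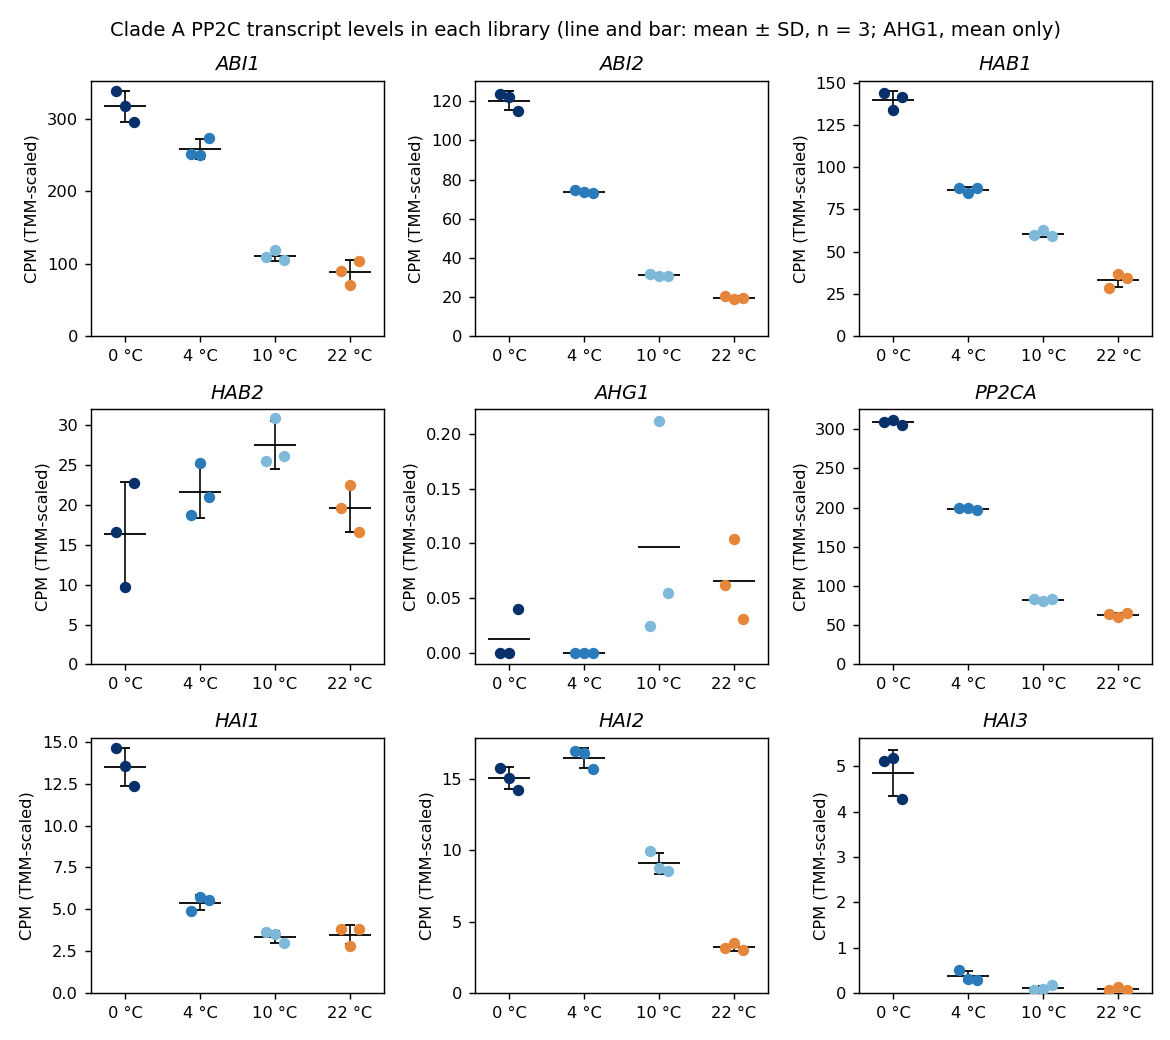
Transcript level of each clade A PP2C gene in each of the 12 libraries, in CPM after TMM scaling, by temperature; points are libraries, the line is the mean and the bar the SD (n = 3; AHG1 has the mean only). ABI1, ABI2, HAB1 and PP2CA step down with temperature, HAI2 overlaps between 0 and 4 °C, HAI3 stands near 0 except at 0 °C, and HAB2 overlaps between 0 and 22 °C.

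Because whole plantlets were sampled, more RNA per cell and more cells of an expressing type cannot be told apart. Other markers moved with temperature in the same libraries. The summed level of 9 root markers was 59.8 to 60.7 CPM at 0 °C, 73.2 to 79.1 at 4 °C, 87.8 to 91.8 at 10 °C and 98 to 103 at 22 °C, while its members went both ways: 1 was higher and 6 lower at 0 °C than at 22 °C, 1 and 2 at 4 °C, and 4 and 3 at 10 °C. The sum of 5 leaf mesophyll markers was 25000 to 26900 CPM at 0 °C, 17900 to 19200 at 4 °C, 19600 to 20100 at 10 °C and 27600 to 29400 at 22 °C, with none higher and 4, 5 and 4 lower at 0, 4 and 10 °C. The 7 guard cell markers summed to 2210 to 2300 CPM at 0 °C, 1710 to 1840 at 4 °C, 1370 to 1410 at 10 °C and 1810 to 2040 at 22 °C, nearly all of it TGG1. The other 6 summed to 59.4 to 62.3 CPM at 0 °C, 75.7 to 80.9 at 4 °C, 45.4 to 47.6 at 10 °C and 50.8 to 54.7 at 22 °C. Of the 7, 3 were higher and 3 lower at 0 °C than at 22 °C, 4 higher and 1 (TGG1) lower at 4 °C, and none higher and 4 lower at 10 °C. Of 10 seed markers only 3 passed the filter, CRU2 had no count in any cold library, and the 10 together summed to 2.72 to 3.02 CPM at 0 °C, 1.44 to 1.7 at 4 °C, 2.21 to 3.54 at 10 °C and 0.529 to 0.877 at 22 °C. Their part in the PP2C differences was not tested. Library totals were 32870040 to 41683299 estimated counts.

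ABI1 encodes the phosphatase first found through a dominant ABA-insensitive mutant, and it was among the most abundant members. Its level was 338.6, 318.2 and 295.4 CPM at 0 °C, 251.2, 250.6 and 273.9 CPM at 4 °C, 108.8, 119 and 104.7 CPM at 10 °C, and 89.32, 70.62 and 103.6 CPM at 22 °C. The 4 temperatures did not overlap, although the nearest 10 and 22 °C libraries differed by about 1 CPM. ABI1 was higher than at 22 °C by a log2 fold change of 1.85 ± 0.111 at 0 °C (SE; edgeR's quasi-likelihood test, adjusted p = 1.03e-08) and by 1.56 ± 0.110 at 4 °C (5.20e-08). At 10 °C the difference was 0.34 ± 0.109 (adjusted p = 0.0169); the call was lost without the second 10 °C library (0.28, adjusted p = 0.0676) or without the second 22 °C library (0.20, adjusted p = 0.0524). Between 0 and 4 °C ABI1 differed by 0.30 ± 0.107 (adjusted p = 0.0315). That call was lost without the first or second 0 °C library or the first or second 4 °C library (adjusted p of 0.0669 to 0.0902), with assembled transcripts kept (0.27, adjusted p = 0.067), with upper quartile factors (0.20, adjusted p = 0.133) and with total counts alone (0.02, adjusted p = 0.879).

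ABI2, the close relative of ABI1, had lower levels and a steeper gradient. It stood at 123.8, 122.2 and 114.9 CPM at 0 °C, 74.42, 73.62 and 73.32 CPM at 4 °C, 31.54, 30.86 and 30.49 CPM at 10 °C, and 20.3, 18.9 and 19.42 CPM at 22 °C. Replicates lay close together and no 2 temperatures overlapped. ABI2 was higher than at 22 °C by log2 2.62 ± 0.041 at 0 °C (a 6.16-fold difference, adjusted p = 2.28e-14), 1.92 ± 0.041 at 4 °C (4.67e-13) and 0.66 ± 0.041 at 10 °C (1.98e-08). The count ratio of ABI2 to ABI1 averaged 0.38 at 0 °C and 0.286 at 4 °C, against 0.28 at 10 °C, and was 0.227 at 22 °C. It differed among the temperatures by an exact permutation test of any difference over the 12 libraries (p = 0.00123, 0.00247 adjusted over the 4 ratios tested, 15400 partitions). The 3 ratios at 0 °C, 0.366 to 0.389, lay above every other library, while 4, 10 and 22 °C overlapped. ABI1 values were whole within 0.001 in 1 of 12 libraries, so some of its reads were divided with other transcript rows. Of the 24 values of ABI2's 2 transcripts, 4 were whole. Which rows shared the reads was not tested, so both sides of this ratio are estimates.

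HAB1, which dephosphorylates and inhibits the guard cell kinase OST1, followed the ABI pair. Its libraries read 144.1, 133.6 and 141.5 CPM at 0 °C, 87.49, 84.93 and 87.84 CPM at 4 °C, 59.68, 62.74 and 59.41 CPM at 10 °C, and 28.61, 36.5 and 34.27 CPM at 22 °C. No libraries of different temperatures overlapped. HAB1 was higher than at 22 °C by log2 2.07 ± 0.071 at 0 °C (adjusted p = 3.84e-11), 1.39 ± 0.070 at 4 °C (1.91e-09) and 0.87 ± 0.070 at 10 °C (2.51e-07). At 10 °C its log2 difference was above those of ABI1 (0.34), ABI2 (0.66) and PP2CA (0.38) and below that of HAI2 (1.49). The differences between these genes were not tested.

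HAB2, its paralog with the same coding length (511 codons each), did not follow. It had 16.56, 9.751 and 22.77 CPM at 0 °C, 18.65, 25.21 and 20.96 CPM at 4 °C, 25.41, 30.86 and 26.04 CPM at 10 °C, and 19.61, 22.5 and 16.62 CPM at 22 °C. The 0 °C libraries were the most scattered and straddled the 22 °C range, and the 10 °C libraries lay above both. Its log2 difference from 22 °C was -0.26 ± 0.234 at 0 °C (adjusted p = 0.329), 0.14 ± 0.227 at 4 °C (0.601) and 0.48 ± 0.224 at 10 °C (0.0769). The 95% interval at 0 °C, -0.77 to 0.25, lay below the intervals of the 7 other tested members. HAB2 was lower at 0 °C than at 10 °C by -0.74 ± 0.231 (adjusted p = 0.012), as were 36.6% of all loci, and this call was lost without the second 10 °C library (-0.63, adjusted p = 0.0513). One library also decided calls in the other direction: without the third 0 °C library HAB2 was called lower at 0 °C than at 22 °C (-0.56, adjusted p = 0.0363) and than at 4 °C (-0.70, adjusted p = 0.0167), and without the second or the third 0 °C library it was called higher at 10 °C than at 22 °C (adjusted p of 0.0142 and 0.0296). All 12 of its values were fractional in the deposited table, which in estimated counts marks reads divided between HAB2 and other transcript rows.

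The count ratio of HAB2 to HAB1 was lowest at 0 °C and gave the smallest p of the 4 ratios tested. It was 0.115, 0.073 and 0.161 at 0 °C, 0.213, 0.297 and 0.239 at 4 °C, 0.426, 0.492 and 0.438 at 10 °C, and 0.686, 0.616 and 0.485 at 22 °C. The 0 °C libraries lay below all others and the 4 °C libraries below those at 10 and 22 °C, which overlapped (exact permutation test of any difference, p = 0.00013, 0.000519 adjusted over the 4 ratios). Of the 36 values of HAB1's 3 transcripts, 2 were whole within 0.001, so both sides of this ratio are estimates. In length-scaled terms HAB2 made up 1.38 ± 0.577% of the clade's summed level at 0 °C and 2.59 ± 0.408% at 4 °C, while its share was 6.89 ± 0.561% at 10 °C and 6.94 ± 1.51% at 22 °C (SD, n = 3 each).

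PP2CA, the member with the highest length-scaled level at 0 °C, had the smallest standard errors of the 8 tested members. Its libraries read 309.6, 312.2 and 305.7 CPM at 0 °C, 199.3, 199.2 and 197.3 CPM at 4 °C, 82.98, 80.6 and 83.02 CPM at 10 °C, and 63.98, 61.11 and 65.02 CPM at 22 °C. The 4 groups were well apart. PP2CA was higher than at 22 °C by log2 2.29 ± 0.030 at 0 °C (a 4.88-fold difference, adjusted p = 5.03e-15), 1.65 ± 0.030 at 4 °C (1.14e-13) and 0.38 ± 0.030 at 10 °C (2.16e-07). All 12 of its deposited counts were whole numbers within 0.001, which leaves no sign of reads shared with another row.

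AHG1, the relative of PP2CA that acts mainly in seeds, was barely detected. It had 0, 0 and 1 count at 0 °C, 0 in each library at 4 °C, 1, 8 and 2 counts at 10 °C and 2, 4 and 1 counts at 22 °C. A count of 0 allows up to 3 counts in a library, so these levels are near the limit of detection, and no fold change is given. This limit covers counting error only. With the filter on low counts left out, AHG1 was called lower at 4 °C than at 10 °C (adjusted p = 0.0285) and than at 22 °C (adjusted p = 0.0453).

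The HAI genes, named for their strong induction by ABA and known for roles in drought responses, were low at 22 °C and differed from one another in the cold. HAI1 had 14.61, 13.58 and 12.36 CPM at 0 °C, 4.889, 5.757 and 5.56 CPM at 4 °C, 3.62, 3.514 and 2.958 CPM at 10 °C, and 3.791, 2.826 and 3.797 CPM at 22 °C. The 0 °C libraries stood apart, the 4 °C libraries were slightly above the rest, and the 10 and 22 °C libraries overlapped. HAI1 was higher than at 22 °C by log2 1.96 ± 0.132 at 0 °C (adjusted p = 3.18e-08) and by 0.64 ± 0.134 at 4 °C (0.000869), and the difference at 10 °C was -0.04 ± 0.136 (0.814; 95% interval -0.34 to 0.26). Between 0 and 4 °C it differed by 1.32 ± 0.128 (adjusted p = 2.06e-06).

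HAI2 (also known as AIP1) was the member for which 10 °C made the most difference. It had 15.8, 15.06 and 14.25 CPM at 0 °C, 16.93, 16.82 and 15.7 CPM at 4 °C, 9.942, 8.771 and 8.542 CPM at 10 °C, and 3.164, 3.5 and 2.988 CPM at 22 °C. The 0 and 4 °C libraries overlapped, the 10 °C libraries lay between them and the controls, and each cold group was clear of 22 °C. HAI2 was higher than at 22 °C by log2 2.22 ± 0.089 at 0 °C (adjusted p = 1.86e-10), 2.35 ± 0.088 at 4 °C (1.01e-10) and 1.49 ± 0.089 at 10 °C (1.33e-08). Among the 8 tested members its fold change at 10 °C was the largest, at 2.82-fold. The difference between 0 and 4 °C was -0.13 ± 0.080 (adjusted p = 0.176, 95% interval -0.31 to 0.04); with upper quartile factors or total counts alone HAI2 was called lower at 0 °C than at 4 °C (-0.23, adjusted p = 0.0251, and -0.41, adjusted p = 0.000804).

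HAI3 was counted mainly at 0 °C. Its counts were 120, 126 and 106 at 0 °C, 18, 9 and 9 at 4 °C, 3, 3 and 6 at 10 °C, and 2, 5 and 2 at 22 °C. The 0 °C libraries were far above all others, the 4 °C libraries were above 10 and 22 °C, and those at 10 and 22 °C overlapped. HAI3 was higher than at 22 °C by log2 5.74 ± 0.344 at 0 °C (53.4-fold, 95% interval of the log2 value 4.99 to 6.49, adjusted p = 1.01e-08) and by 2.05 ± 0.402 at 4 °C (0.000548); at 10 °C the difference was 0.26 ± 0.478 (0.731). Because only its 0 °C libraries brought it past the filter on low counts, the test at 0 °C was also read with no filter, where the difference was 5.75 (adjusted p = 3.06e-09). It was also higher at 0 °C than at 4 °C, by 3.69 ± 0.286 (adjusted p = 2.64e-07), and by 3.70 with no filter (adjusted p = 1.07e-07). At 0 °C the absolute changes of the other 6 called members exceeded those of 84.4 to 92.2% of all tested loci. Even at 0 °C its length-scaled level, 3.25 ± 0.334 CPM per kb, was only 0.723 ± 0.0606% of the clade's sum (SD, n = 3).

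The count ratios among the HAI genes changed accordingly. HAI3 to HAI1 averaged 0.359 at 0 °C and 0.0697 at 4 °C, with 0.0331 at 10 °C and 0.0263 at 22 °C, and HAI2 to HAI1 averaged 1.11 at 0 °C, reached 3.07 at 4 °C and 2.71 at 10 °C, and was 0.954 at 22 °C. Both differed among the temperatures (exact permutation tests of any difference, p = 0.0026 and 0.00208, each 0.0026 adjusted over the 4 ratios). HAI3 to HAI1 rests on few HAI3 counts at the warmer temperatures, 3, 3 and 6 at 10 °C and 2, 5 and 2 at 22 °C. The ratio of HAI2 to HAI1 was 2.5 or more in every library at 4 and 10 °C, against 1.08 to 1.15 at 0 °C and 0.787 to 1.24 at 22 °C. HAI1 values were fractional in all 12 libraries, and those of HAI2 and HAI3 were whole in all 12.

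**Figure D2:**
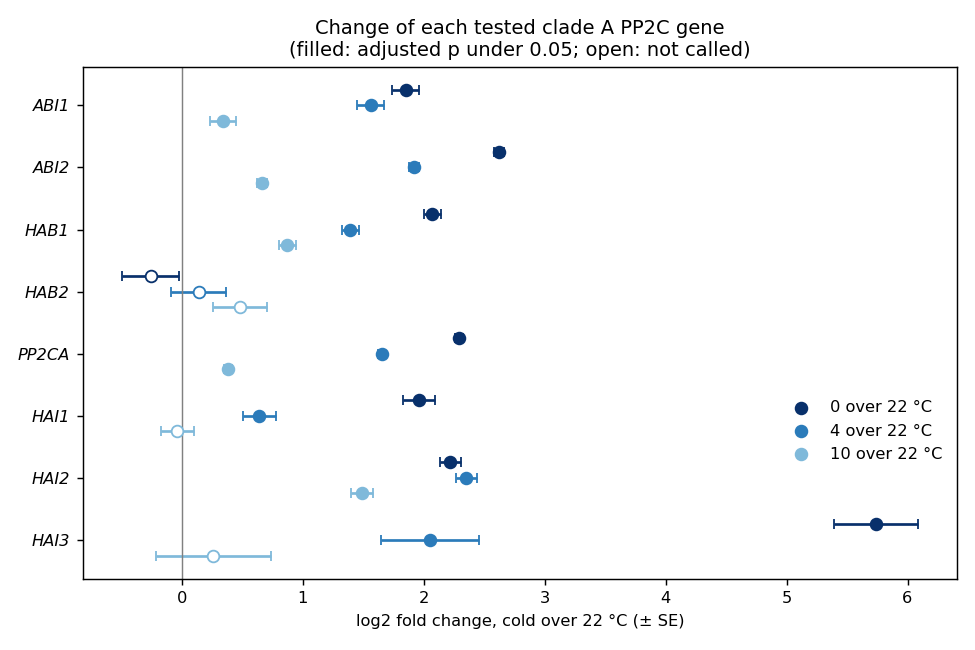
Log2 fold change of each tested member at 0, 4 and 10 °C over 22 °C, with its SE; filled points have an adjusted p under 0.05. HAI3 at 0 °C (5.74) lies far to the right, and HAI2 is the member with the largest value at 10 °C (1.49). HAB2 has open points only, at -0.26 for 0 °C, 0.14 for 4 °C and 0.48 for 10 °C.

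Among the cold treatments, 6 members were higher at 0 °C than at 4 °C (ABI1, ABI2, HAB1, PP2CA, HAI1 and HAI3), against 29.2% of all loci, and none was called lower (28.8% of loci). All tested members but HAB2 were higher at 0 °C than at 10 °C, against 33.9% of loci, and the same 7 were higher at 4 °C than at 10 °C, against 29.7%, with none lower (30.3% of loci). HAI3 was tested only because it was high at 0 °C. Without it, 5 of 7 members were higher at 0 °C than at 4 °C, 6 at 0 °C than at 10 °C and 6 at 4 °C than at 10 °C. For HAI2 the 0 against 10 °C difference was 0.73 ± 0.081 (adjusted p = 4.81e-06), and it was lost with total counts alone (0.16, adjusted p = 0.094). In the joint test of the 4 temperatures all 8 tested members differed, as did 88.5% of loci; HAB2 had the weakest result (adjusted p = 0.0485), and 7 of the 8 differed, without HAB2, when any of 9 of the 12 libraries was left out (adjusted p of HAB2 0.00469 to 0.177 over all 12) or with the replicate number as a block (0.0822).

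Compared per kilobase, PP2CA and ABI1 were the main clade A transcripts at every temperature. At 0 °C PP2CA stood at 172 ± 1.7 and ABI1 at 146 ± 9.96 CPM per kb, followed by ABI2 (54.9 ± 2.15) and HAB1 (51.8 ± 2.05), which did not differ beyond their spread. HAI2 (7.89 ± 0.405), HAI1 (6.92 ± 0.574) and HAB2 (6.19 ± 2.47) came next, with HAB2 overlapping both, and HAI3 was last of the tested members. At 4 °C ABI1 (119 ± 6.13) led PP2CA (110 ± 0.616). At 10 °C ABI1 (51.1 ± 3.42) again led PP2CA (45.6 ± 0.77), and HAB1 (22.6 ± 0.687) led ABI2 (14.1 ± 0.26). At 22 °C ABI1 (40.5 ± 7.63) and PP2CA (35.2 ± 1.13) overlapped, HAB1 (12.3 ± 1.48), ABI2 (8.9 ± 0.312) and HAB2 (7.41 ± 1.11) followed, and HAI1 (1.77 ± 0.285) and HAI2 (1.69 ± 0.136) overlapped. PP2CA and ABI1 together thus held most of the summed level: PP2CA 38.3 ± 1.01% at 0 °C and 32.7 ± 1.24% at 22 °C, and ABI1 32.6 ± 1.25% at 0 °C and 37.3 ± 4.6% at 22 °C.

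**Figure D3:**
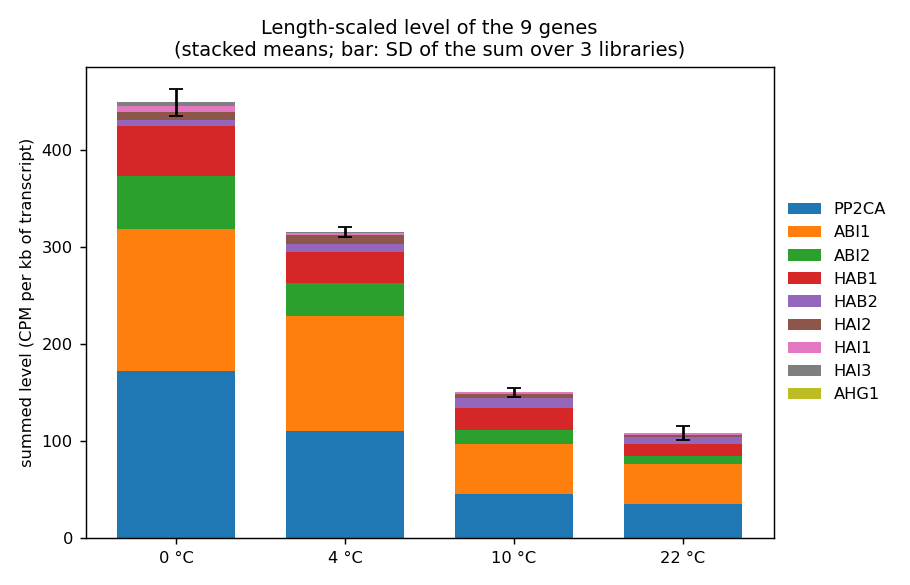
Summed length-scaled level of the 9 members (CPM per kb of transcript) at each temperature, as stacked means with the SD of the sum over 3 libraries. The sum is 449 at 0 °C and 108 at 22 °C, and PP2CA and ABI1 make up most of each bar.

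HAB1 was the member with a called change in its transcript forms. Its second form, AT1G72770.2, retains intron 4 (123 bases, chr1:27392394-27392516, plus strand, TAIR10.1) and its coding sequence is annotated to end after 20 bases of intron, which leaves 406 codons in place of the 511 of AT1G72770.1. The 50 bases around the start of that intron are shown because the difference between the forms lies there, with exon in capitals and intron in lower case.
HAB1, chr1:27392364-27392413, plus strand: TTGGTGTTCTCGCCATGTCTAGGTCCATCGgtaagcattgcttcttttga

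AT1G72770.2 took 27.7, 23.6 and 25.2% of the HAB1 estimated counts at 0 °C, 10.9, 11.5 and 9.5% at 4 °C, 15, 13 and 15.4% at 10 °C, and 24.4, 24.4 and 22.2% at 22 °C. The shares at 0 and 22 °C overlapped, and those at 4 and 10 °C were below both, with 4 °C the lowest. Transcript usage of HAB1 differed between 4 and 22 °C (edgeR's diffSpliceDGE with the Simes method, adjusted p = 0.00607; 12.9% of the 4532 genes with several tested transcripts were called). The log2 change in usage of AT1G72770.2 at 4 °C was -1.16. No call was made for HAB1 between 0 and 22 °C (adjusted p = 1; 14.8% of genes called) or between 10 and 22 °C (0.254; 5.71% called). Usage also differed between 0 and 4 °C (log2 1.27, adjusted p = 0.00658; 3.02% of genes called), a comparison added after its values were seen, as were those between 0 and 10 °C (adjusted p = 0.102; 6.6% called) and between 4 and 10 °C (adjusted p = 1; 3.11% called). The retained-intron form had 767 to 938 estimated counts per library at 0 °C, against 255 to 346 at 4 °C.

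**Figure D4:**
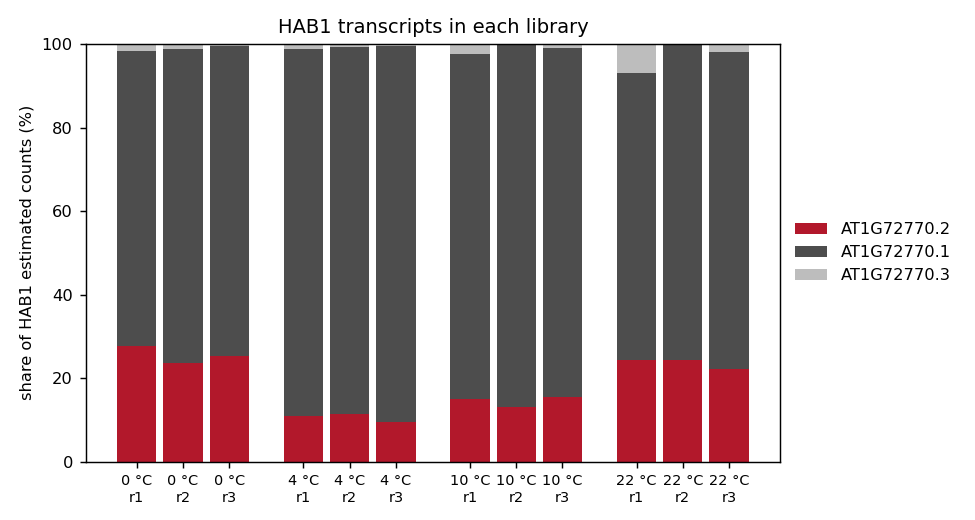
Share of each annotated HAB1 transcript in the estimated counts of the gene (percent), in each library by temperature. The retained-intron form AT1G72770.2 takes 23.6 to 27.7% at 0 °C, 9.5 to 11.5% at 4 °C, 13 to 15.4% at 10 °C and 22.2 to 24.4% at 22 °C.

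ABI2 was the other member with more than 1 tested transcript. Its minor form AT5G57050.2 took 1.39 to 2.3% at 0 °C, 2.07 to 5.02% at 4 °C, 3.45 to 5.13% at 10 °C and 0 to 3.49% at 22 °C, where it was counted in the second library and listed at 0 in the others. No change in usage was called (adjusted p of 1, 0.412 and 0.383 at 0, 4 and 10 °C against 22 °C), and without the second 22 °C library all 3 were called (0.000928, 5.35e-05 and 4.59e-05). The other members are listed with 1 transcript each.

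The loci whose profiles were most like each member's were found by Pearson r of log2 CPM over the 12 libraries, among 14402 loci with a mean of at least 5 CPM (14403 for HAI3); since all loci share 4 temperatures, high values are common. ABI1 was closest to LPPgamma (r 0.995), SDH2-1 and ELF4. PP2CA was closest to AT1G21790 (r 1.000), LEJ1 and ERD7, and ABI2 to AT3G55580, AT5G19875 and AT4G18070 (r 0.999 each). HAB1 was closest to RBP47B (r 0.998), HAI1 to SPX1 (r 0.989), HAI2 to AT5G08680 (r 0.996) and HAI3 to AT1G25682 (r 0.992). HAB2 had no such close match, its highest being AT2G32910 (r 0.882). Between members, r was 0.84 to 1.00 for the pairs among ABI1, ABI2, HAB1, PP2CA, HAI1 and HAI3, 0.62 to 0.91 for HAI2 with each of these, and -0.59 to -0.08 for HAB2 with each of the others.

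Counts for the other lists of the pathway stand beside the shares of all loci against 22 °C, 35.5% higher and 38.8% lower at 0 °C, 36.3% and 37.6% at 4 °C, and 32.4% and 32.3% at 10 °C; the lists themselves were not tested. Of 11 tested PYR/PYL receptor genes, 5 were higher and 5 lower at 0 °C than at 22 °C, with a median log2 fold change of 0.26; 5 were higher and 6 lower at 4 °C, and 2 were higher and 6 lower at 10 °C. The counts at 0 °C are near the shares of all loci. PYL11 (3.70 ± 0.315 CPM at 0 °C, 0.199 ± 0.097 at 22 °C) and PYL12 rose at 0 °C by log2 4.16 ± 0.337 (adjusted p = 1.95e-07) and 3.90 ± 0.180 (7.36e-10), and PYR1 (19.4 ± 1.31 CPM at 0 °C, 78.5 ± 4.77 at 22 °C) and PYL1 fell, at -2.02 ± 0.069 (3.75e-11) and -1.93 ± 0.078 (2.08e-10). At 0 °C, where 7 phosphatase genes were higher, the receptor genes thus went both ways, 5 higher and 5 lower.

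Of 10 SnRK2 kinase genes, a family that includes substrates of the phosphatases, 6 were higher and 2 lower at 0 °C, 4 and 5 at 4 °C, and 2 and 8 at 10 °C. SNRK2.7 and SNRK2-8 rose at 0 °C by log2 1.88 ± 0.103 (adjusted p = 4.15e-09) and 1.67 ± 0.050 (1.08e-11). SNRK2.3 and SNRK2.5 fell (-1.69 ± 0.124, 7.69e-08, and -1.05 ± 0.171, 0.00012). SNRK2.3 is 1 of the 3 kinases most strongly activated by ABA. The others of these 3, SNRK2.2 and OST1, were called higher at 0 °C, by 0.16 ± 0.035 and 0.56 ± 0.103. Of 7 tested ABA-pathway transcription factors 4 were higher and 1 lower at 0 °C, 6 and 0 at 4 °C, and 2 and 2 at 10 °C. ABF1, which binds the ABA response element, had 350.9 ± 13.8 CPM at 0 °C and 53.4 ± 3.46 at 22 °C (log2 2.72 ± 0.053, adjusted p = 1.71e-13), ABI5 and ABF4 rose by 2.46 ± 0.170 and 0.70 ± 0.046, and ABF3 fell (-0.77 ± 0.077, 1.42e-06).

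Among 17 regulators and partners of the phosphatases, 12 were higher and 2 lower at 0 °C, 13 and 2 at 4 °C, and 6 and 3 at 10 °C. MYBR1 (MYB44), known as a repressor of clade A PP2C genes, had 296.9 ± 10.5 CPM at 0 °C and 46.2 ± 1.46 at 22 °C (log2 2.68 ± 0.044, adjusted p = 3.03e-14). HB-12, a homeodomain factor known to act on PP2C genes, rose by 2.36 ± 0.053 (6.55e-13), RGLG1, a ubiquitin ligase that targets PP2CA, by 1.83 ± 0.108 (8.40e-09), and the receptor kinase FER by 1.57 ± 0.130 (2.31e-07). Of 7 channel and oxidase genes of the ABA response 2 were higher and 3 lower at 0 °C, 2 and 3 at 4 °C, and 0 and 2 at 10 °C, near the shares of all loci at 0 and 4 °C; the anion channel gene ALMT12 (-1.87 ± 0.129, 4.19e-08) and the potassium channel genes KT1 (AKT1; -1.27 ± 0.094, 8.41e-08) and KAT1 (-0.51 ± 0.117, 0.00165) were lower at 0 °C, and RBOHD was higher (0.73 ± 0.093, 1.43e-05).

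Genes of ABA metabolism and ABA-induced targets were counted in the same way. Of 12 tested genes of ABA synthesis and breakdown 8 were higher and 1 lower at 0 °C, 8 and 2 at 4 °C, and 7 and 2 at 10 °C. CYP707A1 and CYP707A4, which break ABA down, rose at 0 °C by 2.78 ± 0.099 and 2.13 ± 0.118, and NCED3 and NCED9, of ABA synthesis, by 2.71 ± 0.063 and 2.07 ± 0.423. Of 6 tested ABA-induced targets 4 were higher and 1 lower at 0 °C, 4 and 2 at 4 °C, and 2 and 3 at 10 °C; LTI65 (RD29B) had 265.3 ± 9.84 CPM at 0 °C and 2.34 ± 0.121 at 22 °C (log2 6.82 ± 0.056), RD26 rose by 4.18 ± 0.071, RD20 had 40.1 ± 0.648 CPM at 0 °C and 17.4 ± 0.749 at 22 °C, and RD22 fell (-1.24 ± 0.036).

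Other PP2C clades, which are not ABA co-receptors, were set beside clade A. Only the listed genes of each clade were looked at. Of all tested loci, 35.5% were called higher and 38.8% lower at 0 °C than at 22 °C. At 0 °C all 4 listed clade B genes were higher (median log2 fold change 1.46), led by PP2C5 (2.64 ± 0.261). Among them AT1G07160 was very low, with 0.526 ± 0.248 CPM at 0 °C and 0.123 ± 0.0507 at 22 °C. The 3 clade E growth regulators EGR1, EGR2 and EGR3 were also higher (median 2.00). EGR3 (AT3G16800) led them, with 722.7 ± 6.26 CPM at 0 °C and 32.2 ± 1.82 at 22 °C (4.49 ± 0.050). Of 9 listed clade D genes 6 were higher and 2 lower (median 0.51), with AT4G33920 at 3.79 ± 0.046 and AT5G02760 at -3.80 ± 0.092. Of 7 further PP2Cs 1 was higher, PP2CG1 (0.78 ± 0.059), and 4 were lower, among them POL (-4.54 ± 0.691) and PLL1 (-2.34 ± 0.192), which act in meristems (median -0.14). At 4 °C the medians were 0.58 for the clade B genes, 0.13 for those of clade D and 1.72 for the 3 EGR genes. The further PP2Cs had -0.82 there, beside 1.60 for clade A. At 10 °C the medians were 0.13 for the clade B genes, -0.02 for those of clade D and -0.40 for the 3 EGR genes. The further PP2Cs had -0.22 at 10 °C, beside 0.43 for clade A. These lists were small and were described by counts, so no clade was shown to differ from another.

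**Figure D5:**
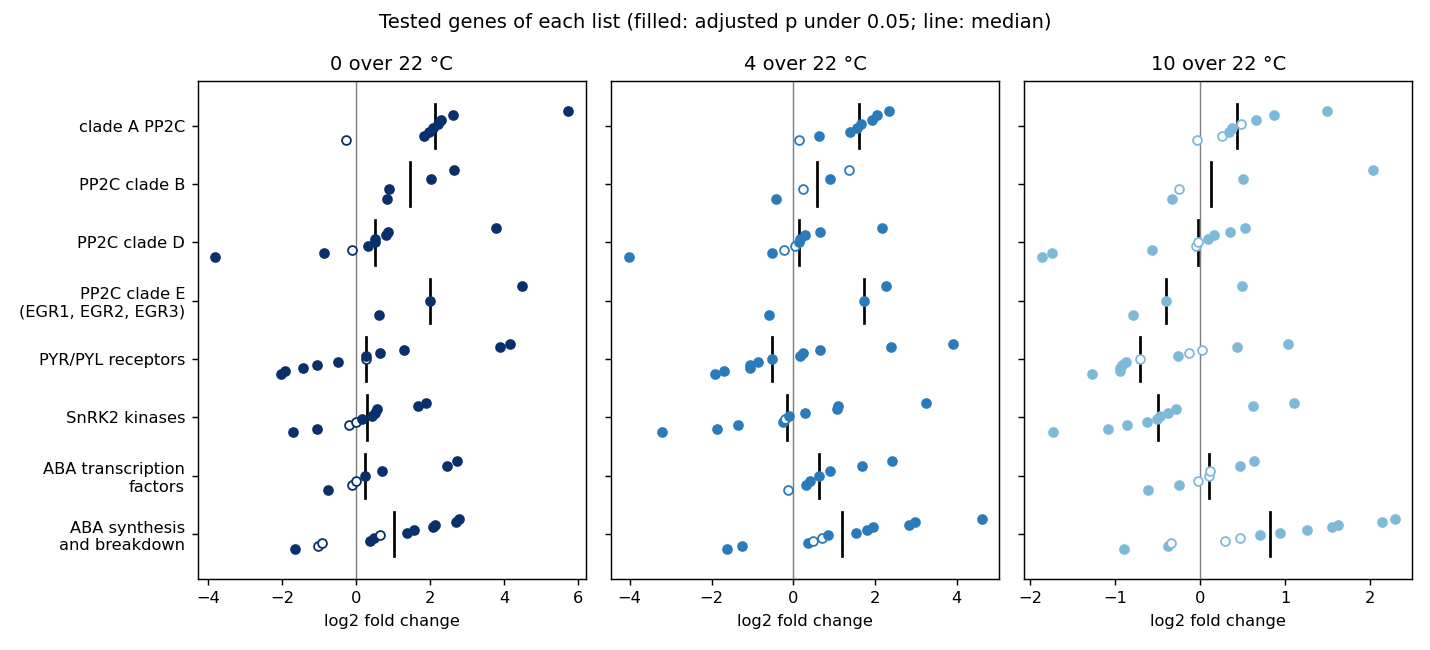
Log2 fold change at 0, 4 and 10 °C over 22 °C of every tested gene in clade A, in the lists from other PP2C clades and in the other ABA-pathway lists; points are genes (filled, adjusted p under 0.05) and lines are medians. Clade A medians are 2.15, 1.60 and 0.43, while receptor and kinase genes lie on both sides of 0 at each temperature.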

How the data were processed

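RNA-seq of 12 libraries was analysed from the deposited table of transcripts. The authors deposited estimated counts per transcript (56132 transcripts, some of them assembled from the reads), and a second table of the same values as CPM of each column total, which recomputed CPM matched within 5.09e-11 and which was not used further. The submitters' processing notes name HISAT2 2.2.0, kallisto 0.42.4, edgeR and the build TAIR10; which tool made which step, and any use of strand in counting, are not given in the sources used here. Annotated transcripts were added up within each locus and the sums rounded; assembled transcripts held 9.79 to 12.2% of counts and were left out. Loci with about 0.326 CPM in 3 libraries were kept (filterByExpr, 21293 of 33560), scaled by TMM (factors 0.792 to 1.19), and tested with edgeR 4.0.16's quasi-likelihood test in 1 fit of all 12 libraries (R 4.3.3), with Benjamini-Hochberg adjustment over all tested loci in each comparison and a threshold of 0.05. SEs were taken as the log2 fold change over the square root of F and are approximate. CPM here is TMM-scaled, computed from the deposited estimated counts; CPM per kb divides by transcript length. Transcript usage was tested with diffSpliceDGE. Count ratios of related genes were tested by exact permutation over libraries. These ratio tests were not among the planned tests. The steps were tested on simulated data.

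Sequences, lengths and gene models come from RefSeq's TAIR10.1; the files hold no coordinates. The count table holds 6 further columns that match no sample here and were not used. The members and gene lists were chosen with earlier results of these data known. All 9 members are named, with up to 4 called genes of each other list by absolute log2 fold change at 0 against 22 °C. SNRK2.2 and OST1 are named besides, next to SNRK2.3. The 3 most similar loci per member were found, and for most members the first is named. Deviations of same-numbered libraries were little correlated (18 pairs, r of -0.0391 to 0.081, against -0.0702 to 0.0679 in 36 other pairs), and no pairing was used. These values cannot show whether same-numbered libraries shared a plate or day. Alternatives were other scalings (upper quartile, total counts), DESeq2 1.42.0, other filters, a replicate block, assembled transcripts kept, 2 temperatures alone, and each library left out. Assembled transcripts, where kept, formed loci of their own, so that setting changed the fit but not the counts of the members.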

Additional observations from a re-analysis of the deposited data

How the results depend on the processing

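Both scaling and single libraries moved results. Against TMM, the median log2 fold change of all loci shifted at 0, 4 and 10 °C against 22 °C by -0.41, -0.14 and 0.15 with total counts alone and by -0.23, -0.14 and -0.02 with upper quartile factors, and the share of called loci that were higher at 0 °C was 47.8% with TMM, 35.4% with upper quartile factors and 27.6% with library totals. The 7 members called higher at 0 °C were called higher there in all 20 alternatives, except that HAI3 was tested, and called, in 19. HAB2 at 4 against 22 °C moved to -0.00012 with upper quartile factors and to -0.0012 with total counts, and HAI1 at 10 against 22 °C to 0.11 with total counts. Members called lower numbered 1 at 0 against 4 °C (HAI2) with upper quartile factors; with total counts alone they numbered 2 at 0 against 4 °C (HAB2 and HAI2), 1 at 0 against 22 °C (HAB2) and 1 at 4 against 10 °C (HAB2). Without a filter on low counts AHG1 was called lower at 4 °C than at 22 °C and than at 10 °C, which made 1 in each; fitted on 2 temperatures alone, HAB2 was lower at 4 °C than at 10 °C (1). HAB2 was called higher at 10 than at 22 °C with total counts alone (0.64), with those 2 temperatures alone (0.50) and with DESeq2 (0.50). Leaving out each library moved HAB2 at 0 against 22 °C between -0.56 and 0.0089, HAI1 at 10 against 22 °C between -0.17 and 0.04 and HAI3 at 10 against 22 °C between -0.18 and 0.72. It moved the members called lower between 0 and 1 at 0 against 22, at 0 against 4 and at 0 against 10 °C, those higher at 10 against 22 °C between 4 and 6, and those with changed usage between 0 and 1 at 0 °C, 1 and 2 at 4 °C and 0 and 1 at 10 °C against 22 °C. HAB1 usage at 4 against 22 °C kept an adjusted p of 0.00263 to 0.0419. The replicate block gave 7, 7 and 5 members higher at 0, 4 and 10 °C against 22 °C. It also gave 7 in place of 8 differing among the 4 temperatures, as did leaving out any of 9 of the 12 libraries (7 to 8 over all 12). Where no value shows a cause, the cause was not tested. Depth limits AHG1 at every temperature and HAI3 at 10 and 22 °C.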
